A study of Mus musculus with 12 samples.

Results

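The heavy-chain CDR3s described here hold a stretch that a diversity (D) segment gives when read in its hydrophobic frame. A CDR3 was a member when its amino acid sequence, between the V-region Cys and the J-region Trp, held TTVV, TMIT, TMVT, TIVT or MMVT, the stretches of 4 residues that DFL16 and DSP2 segments give in that frame. Across 12 libraries 208 distinct CDR3s of 216312 were members, and they came to 254 of 286839 when each library was counted on its own. They were set against 22575 distinct CDR3s with a tyrosine-frame stretch (YGSS, YDYD, YGYD, YGNY, YSNY or YDGY). The rule used neither abundance nor treatment, but members were chosen with earlier results of these data known.

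The libraries were IgM transcripts of splenic B cells from female MRL/lpr mice, a lupus-prone strain with the lpr mutation of Fas, at 14 weeks of age. In 6 libraries (replicates 3, 4, 5, 7, 8 and 9) the mice had received control SMO, a splice-modulating oligomer used as the control. In the other 6 (replicates 3 to 8) they had received LFPRLR SMO, an oligomer that lowers the long form of the prolactin receptor. Both oligomers reached the whole animal from a pump under the skin, and both groups carried the lpr mutation. Amplification used primers for the J558 group of VH segments and for Cμ, so the values cover J558 heavy chains of IgM only.

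CDR3 loops are built at the heavy-chain locus on chromosome 12, where a V, a D and a J segment are joined and bases are trimmed or added at the joints. A D segment can be read in any of its frames. In mice the frame rich in tyrosine, glycine and serine predominates, the hydrophobic frame encodes residues such as valine, isoleucine and methionine, and the remaining frame often holds a stop codon. Hydrophobic-frame loops are known to be scarce among mature B cells.

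For each motif the member of at most 14 residues found in most libraries is printed here, followed by the tyrosine-frame CDR3 found in most libraries among those that hold the bases most common under that motif. They are shown because like D bases read in another frame spell another loop. In a member the capitals mark the 12 bases under the motif. In a partner they mark the 12 bases most common under that motif. Each sequence runs from the codon after the Cys to the codon before the Trp and is the most-read nucleotide form of its CDR3.
TTVV member ARSSITTVVDY: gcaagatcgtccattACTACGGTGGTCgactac
YGSS partner ARRDYGSSYWYFDV: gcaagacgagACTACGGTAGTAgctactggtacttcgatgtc
TMIT member ATMITTAY: gcaACTATGATTACGactgcttac
YDYD partner ARNYDYDVRFAY: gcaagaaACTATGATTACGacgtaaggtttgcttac
TMVT member ARGGSTMVTKEFAY: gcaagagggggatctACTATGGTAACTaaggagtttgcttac
TMVT partner KDHYGDYGNY: aaagatcACTATGGTGACTacgggaactac
TIVT member ATTIVTTMDY: gcaactACTATAGTAACTactatggactac
YSNY partner ARDYSNYFDY: gcaagagACTATAGTAACTactttgactac
MMVT member TMMVTTF: acaATGATGGTTACTacgttc
YDGY partner ARYDGYYYAMDY: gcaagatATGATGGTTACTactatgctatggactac
In the members the capitals open a codon, whereas in the partners they open at the second base of a codon. In the TMIT, TIVT and MMVT pairs both CDR3s hold the same 12 bases. ARSSITTVVDY and ARGGSTMVTKEFAY hold other bases than the commonest ones of their motif, so the TTVV and TMVT pairs do not share all 12. In KDHYGDYGNY the capitals read YGDY and overlap the YGNY stretch by 1 base. ARDYSNYFDY was found in 11 libraries and ARYDGYYYAMDY in 11, while no member was found in more than 4.

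Library totals lay between 130635 and 227202 reads in 11 libraries, which held 12843 to 41475 distinct CDR3s. LFPRLR SMO replicate 6 had 627 reads and 458 distinct CDR3s. Of the 50 most-read CDR3s of a library, 42 were shared by control SMO replicates 5 and 7, 35 by control SMO replicates 4 and 8, and 35 by LFPRLR SMO replicates 4 and 5, against at most 12 in any other pair of a group. Libraries also fell into sets by a base near the Cμ end of the reads, whose second form made up 33.0% to 39.9% of unique sequences in 6 libraries (3 of each group) and at most 2.95% in the other 6. The study counts mice as replicates, whereas the labels do not name the mouse of a library, and the p-values measure the spread between libraries as labelled.

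Hydrophobic-frame CDR3s were rare in every library. Under control SMO they made up 0.0651% of distinct CDR3s in replicate 3 (27 of 41475), 0.0977% in replicate 4 (27 of 27642), 0.101% in replicate 5 (13 of 12843), 0.0760% in replicate 7 (15 of 19734), 0.218% in replicate 8 (70 of 32082) and 0.0707% in replicate 9 (24 of 33925). Under LFPRLR SMO they made up 0.0448% in replicate 3 (12 of 26809), 0.0347% in replicate 4 (8 of 23088), 0.0839% in replicate 5 (13 of 15499), 0.218% in replicate 6 (1 of 458), 0.0680% in replicate 7 (20 of 29427) and 0.101% in replicate 8 (24 of 23857). The groups overlapped, and in each group the highest library stood well above the next. The value of LFPRLR SMO replicate 6 rests on 1 CDR3, with a 95% Wilson interval of 0.0386% to 1.23% that holds the share of every other library except LFPRLR SMO replicate 4. Such intervals cover counting error only.

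The median share was 0.0868% under control SMO and 0.0759% under LFPRLR SMO, a difference within the spread between libraries (exact two-sided Mann-Whitney U test, p = 0.589, adjusted p = 0.785 over 4 comparisons, n = 6 and 6). The shift between groups was estimated at -0.0156 percentage points, with a 95.9% interval from -0.0666 to 0.0355. Tyrosine-frame CDR3s made up 9.16% to 11.8% of distinct CDR3s, and members came to 0.378 to 1.98 per 100 tyrosine-frame CDR3s. The median of this ratio was 0.851 under control SMO and 0.765 under LFPRLR SMO (exact p = 0.485, adjusted p = 0.785, n = 6 and 6), with a shift of -0.117 and an interval from -0.599 to 0.349. When only CDR3s with at least 2 reads were counted, the median share differed by -0.0530 points, which did not pass after adjustment (exact p = 0.0411, adjusted p = 0.165). Among the 6 libraries with the second Cμ form the medians differed by -0.300 per 100, LFPRLR SMO minus control SMO (3 against 3, exact p = 0.1, the smallest that size allows). Among the other 6 the medians differed by 0.0300 in the opposite direction (exact p = 1). Each of the 3 pairs that shared many CDR3s had a library in either set, so the comparisons within the sets are not independent.

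**Figure D1:**
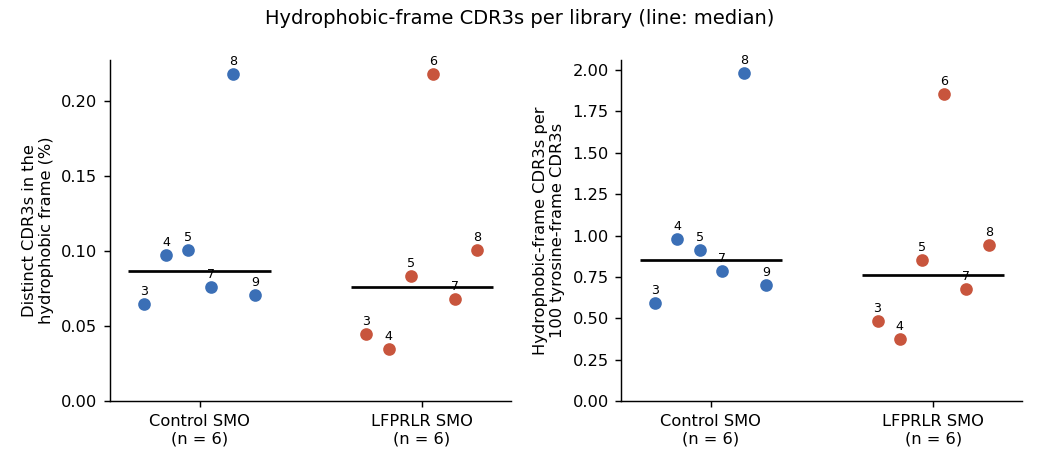
Each point is a library, labelled with its replicate number, and lines are medians of 6 libraries. The left axis gives members as a percent of distinct CDR3s and the right axis members per 100 tyrosine-frame CDR3s; control SMO replicate 8 and LFPRLR SMO replicate 6, both at 0.218%, stand above the others and the groups overlap.

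The motifs were not spread alike over the libraries. TTVV, from a DFL16 segment, was held by 67 members counted per library, of which 49 lay in control SMO replicate 8, 10 in control SMO replicate 3 and 0 to 3 in each other library. YGSS, the tyrosine-frame stretch of the same segment, lay in the same libraries, with 172 CDR3s in control SMO replicate 8, 51 in control SMO replicate 3 and 1 to 6 elsewhere. A stretch that differs from YGSS, YDGS, was common in all libraries, with 1083 to 3790 CDR3s in 11 libraries and 28 in LFPRLR SMO replicate 6. TTMV, which the same bases spell in the hydrophobic frame, is no member by the rule and was found in 52 to 181 CDR3s of those 11 libraries.

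The J1 segment of the same libraries also came in an uncommon form. Most J1 CDR3s were followed by WGAGT, but WGTGT followed 8.14% of J1 CDR3s in control SMO replicate 8 (227 CDR3s), 2.04% in control SMO replicate 3 (76), 3.57% in LFPRLR SMO replicate 6 (2) and at most 0.370% in the others. Of the J1 CDR3s with TTVV or YGSS, 68 were followed by WGTGT and 0 by WGAGT in control SMO replicate 8, and 14 and 1 in control SMO replicate 3. Whether these forms are alleles carried by the MRL/lpr mice or come from other material was not tested, and the 0.218% of control SMO replicate 8 rests on them. Their part in the results was not tested beyond leaving their motifs out. Without TTVV, control SMO replicate 8 held 21 members, 0.0655% of its distinct CDR3s, which lies inside the range of the other control SMO libraries. Without TTVV and YGSS the median share differed by -0.0189 percentage points (LFPRLR SMO minus control SMO), again within the spread (exact p = 0.240, adjusted p = 0.619, n = 6 and 6); this alternative was chosen after seeing the data.

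**Figure D2:**
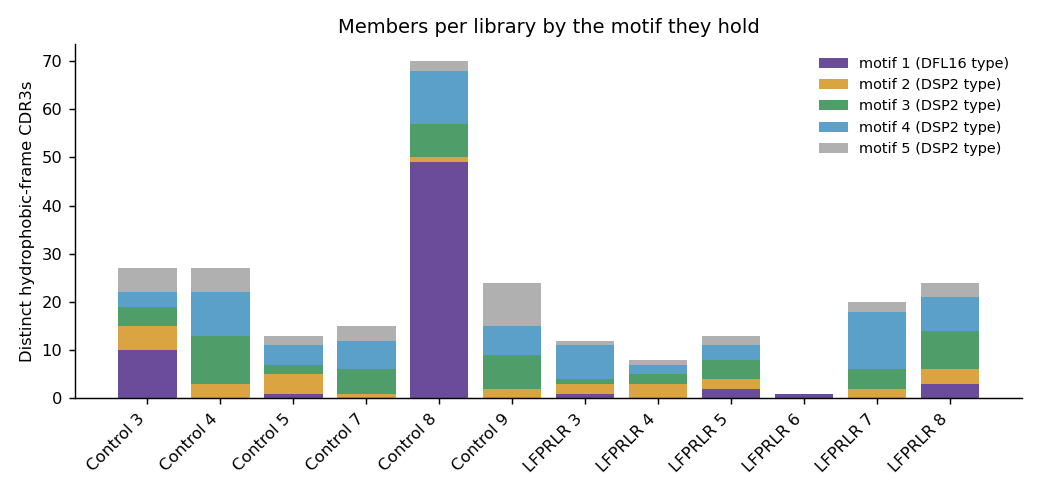
Bars count distinct hydrophobic-frame CDR3s in each library, stacked by the motif they hold: 1 is TTVV, 2 TMIT, 3 TMVT, 4 TIVT and 5 MMVT. TTVV accounts for 49 of 70 members of control SMO replicate 8 and 10 of 27 of control SMO replicate 3.

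The DSP2 motifs were found in 11 libraries each, all but LFPRLR SMO replicate 6. TIVT was held by 70 CDR3s counted per library (2 to 12 in the 11), TMVT by 54 (1 to 10), MMVT by 35 (1 to 9) and TMIT by 28 (1 to 5). Each was scarce beside the tyrosine-frame stretches set against it. There were 0.594 TIVT CDR3s per 100 with YSNY, 0.547 MMVT per 100 with YDGY, 0.680 TMIT per 100 with YDYD and 0.799 TMVT per 100 with YGYD or YGNY. The commonest bases under TMVT read YGDY in the tyrosine frame, which is not among the stretches counted. In-frame unique sequences with those bases numbered 0.485 in the hydrophobic per 100 in the tyrosine frame. The second commonest bases under TIVT (21.4% of its CDR3s) read YSY in the tyrosine frame, which is not counted either. TTVV, the DFL16 motif, was far less scarce beside its tyrosine-frame stretch, at 26.2 per 100 with YGSS. The ratio was 19.6 in control SMO replicate 3 and 28.5 in control SMO replicate 8, which held most of both. TTMV, chosen after seeing the data, stood at 4.83 per 100 with YDGS and varied little between libraries (4.51 to 5.60 in the 11 libraries that held it).

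A comparison of the groups across all stretches of 4 residues set these motifs beside every other stretch. At the floor of 0.1% of distinct CDR3s, 1241 stretches were tested and 0 of the 5 motifs reached it. With a floor of 0.005% and without LFPRLR SMO replicate 6, an alternative chosen after seeing the data, all 5 were among 13882 stretches tested. None of the 13882 was called after adjustment (Benjamini-Hochberg adjusted exact Mann-Whitney p, 0%), and 906 had an unadjusted p under 0.05, or 6.53%. At this size no p can fall below 0.0043, and 1202 stretches would have had to reach it for any call, so the 0% carries little information. Of the 5 motifs 0 were among the 906. MMVT had the lowest p, with a median of 0.0154% of distinct CDR3s under control SMO and 0.00680% under LFPRLR SMO (exact p = 0.0823, adjusted p = 0.620, n = 6 and 5). The commonest of them, TIVT, stood at 0.0308% under control SMO and at 0.0261% under LFPRLR SMO (exact p = 0.792, adjusted p = 0.967). Neither motif differed beyond the spread between libraries.

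The frame was compared between sequences that, as read, can encode a heavy chain and those that cannot. For each motif the 12 bases most common under it were located in all unique nucleotide sequences, and their frame was read from the V-region Cys. In sequences whose J segment was in frame and that held no stop, 314 carried the bases in the hydrophobic and 47022 in the tyrosine frame. In out-of-frame sequences, which as read encode no heavy chain, the numbers were 777 and 494, with 480 in the remaining frame. Per library the in-frame ratio ranged from 0.154 to 1.19 hydrophobic per 100 tyrosine, and the out-of-frame ratio from 56.5 to 220. The 2 ranges did not overlap.

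The log2 ratio in frame minus that out of frame was -8.01 ± 0.97 (SD, n = 11 libraries), and it was negative in 11 of 11 (exact sign-flip test over libraries, p = 0.000977, the smallest 11 libraries allow). LFPRLR SMO replicate 6 held 0 out-of-frame sequences with these bases and was left out. Control SMO libraries averaged -7.68 and LFPRLR SMO libraries -8.40, which did not differ beyond the spread (exact Mann-Whitney p = 0.177, n = 6 and 5). The difference held for the bases of TIVT (347 against 189 sequences out of frame, 79 against 20688 in frame), MMVT (166 against 100, 64 against 10919), TMVT (189 against 136, 49 against 10111) and TMIT (75 against 67, 68 against 5065). The bases of TTVV were found in 5 out-of-frame sequences, 0 of them hydrophobic, and give no comparison.

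The size of this difference depended on where the frame was read. In out-of-frame sequences the frame seen from J by definition differs from that seen from V. Those that are tyrosine from J therefore cannot count as tyrosine from V, nor those hydrophobic from V as hydrophobic from J. Under either reading the out-of-frame counts, and so the size of the difference, are partly set by how the set is made. Read from the J-region Trp 118 were hydrophobic and 954 tyrosine, or 4.88 to 24.0 per 100 over the libraries. The difference was then -4.46 on the log2 scale, again lower in frame in 11 of 11 libraries (exact sign-flip p = 0.000977). Seen from V and J together, 28.4% of the 1751 out-of-frame sequences were hydrophobic from V and tyrosine from J. Another 26.1% were in the remaining frame from V and tyrosine from J. Tyrosine from V and in the remaining frame from J were 22.8%, and tyrosine from V and hydrophobic from J 5.43%. Hydrophobic from V and in the remaining frame from J were 15.99%. In the remaining frame from V and hydrophobic from J were 1.31%. Inserted or deleted bases in reads of in-frame rearrangements would also enter the out-of-frame set. Leaving out sequences within 1 base in length of an in-frame one with the same 10 bases on either side gave -8.04. That step removed few sequences and left 770 hydrophobic, 481 tyrosine and 474 in the remaining frame from V. It therefore cannot settle the part of such reads, which was not tested otherwise. Of the out-of-frame sequences with these bases 76.4% were read once, against 68.4% of the in-frame ones. The bases of TTMV, added after seeing the data, gave a smaller difference of -4.74, with 2272 hydrophobic against 46150 tyrosine sequences in frame.

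**Figure D3:**
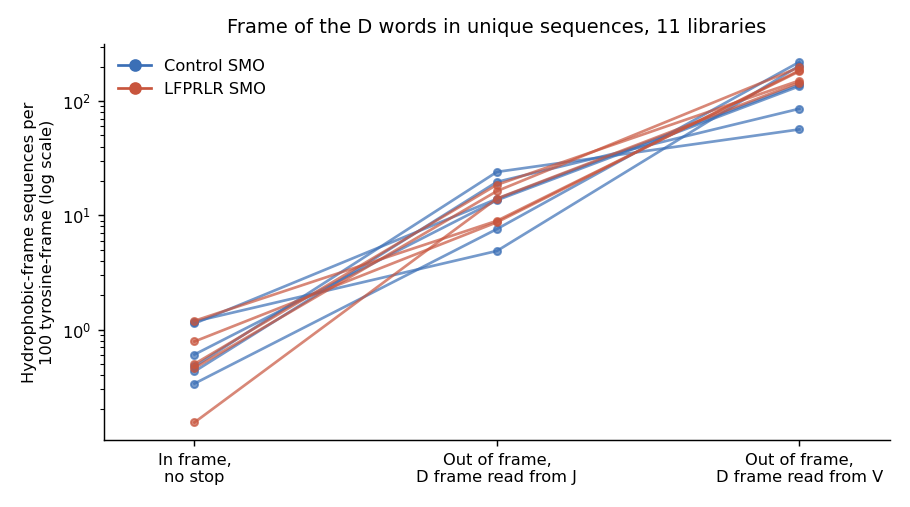
Lines join the values of a library: unique sequences with the D bases in the hydrophobic frame per 100 in the tyrosine frame (log scale), in frame, out of frame as read from J and out of frame as read from V, for 11 libraries. Values lie at 0.154 to 1.19, at 4.88 to 24.0 and at 56.5 to 220.

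Members resembled tyrosine-frame CDR3s in mean length but, pooled over libraries, were more spread out. The pool draws most on control SMO replicate 8 (70 members, 49 of them with TTVV), and the part of these in the spread was not tested. The 208 distinct members had 6 to 24 residues with a mean of 13.4 ± 2.86 (SD), the tyrosine-frame CDR3s a mean of 13.2 ± 2.19 and all distinct CDR3s 11.8 ± 2.70. Members of 16 or more residues made up 23.6%, against 11.8% of tyrosine-frame CDR3s, which is given as a description over pooled CDR3s. Within libraries the mean length of members minus that of tyrosine-frame CDR3s was -0.364 ± 0.931 residues (SD, n = 12), longer in 4 and shorter in 8, which was within the spread (exact sign-flip p = 0.198, adjusted p = 0.423 over 5 comparisons). The mean length of members ranged from 11.3 to 14.1 residues under control SMO and from 11 to 14.1 under LFPRLR SMO, with medians of 12.43 and 12.04 (exact Mann-Whitney p = 0.589, adjusted p = 0.785).

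**Figure D4:**
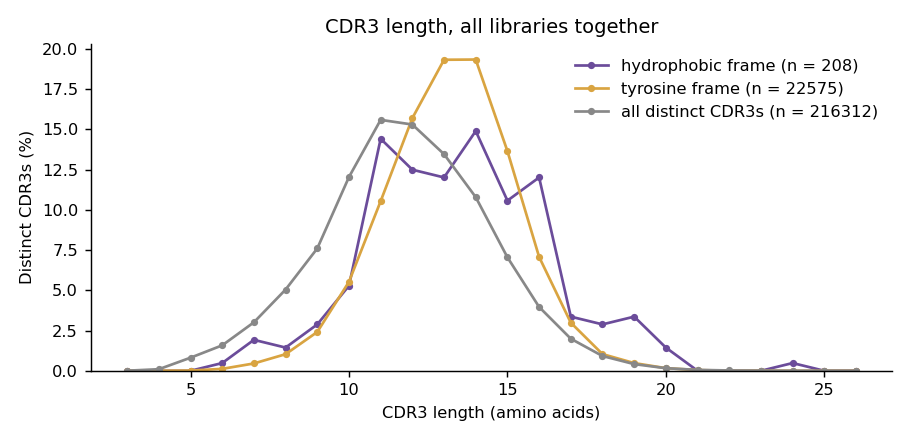
Percent of distinct CDR3s at each length in amino acids, pooled over libraries, for 208 members, 22575 tyrosine-frame CDR3s and all 216312 CDR3s. The members form a broader curve, with 23.6% at 16 residues or more against 11.8% of the tyrosine-frame CDR3s.

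The motif began at a median of residue 4 to 5 of the CDR3, and each motif had favoured neighbours. TTVV was preceded by Ile in 26 of 64 distinct CDR3s and followed by Ala in 33. A Ser stood before TMIT in 14 of 22, before TMVT in 14 of 39 and before MMVT in 16 of 29, and a Thr followed TMIT in 14, TMVT in 22, TIVT in 24 of 54 and MMVT in 17. TIVT differed in its commonest preceding residue, Val in 16.

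Members joined J segments in other proportions than tyrosine-frame CDR3s. J2 made up 33.3% to 50% of members in 10 of 12 libraries, 26.7% in control SMO replicate 7 and 100% in LFPRLR SMO replicate 6, whose only member used it. J2 use was higher than in tyrosine-frame CDR3s in 11 of 12 libraries, by 13.4 ± 17.5 percentage points (SD, exact sign-flip p = 0.0020, adjusted p = 0.0039 over 4 J segments). Without LFPRLR SMO replicate 6 it was higher by 8.72 points (exact p = 0.0039, n = 11). J4, the J segment farthest from the D segments, was lower in 11 of 12 libraries, with a difference of -16.0 ± 10.1 points (SD, exact p = 0.000977, adjusted p = 0.0039), with 0% to 33.3% of members against 27.8% to 37.3% of tyrosine-frame CDR3s. J1 (-4.41 points, adjusted p = 0.176) and J3 (6.95 points, adjusted p = 0.176) did not pass the exact test.

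These J differences changed with the motifs counted. J1 was used by 29.6% of members in control SMO replicate 3 and 20% in control SMO replicate 8, where TTVV and WGTGT were found, and by 0% to 7.69% elsewhere. Without TTVV and YGSS the J2 difference fell to 5.84 points (exact p = 0.0791, adjusted p = 0.0791), J4 differed by -13.0 points (adjusted p = 0.0098), and J3 was higher by 12.6 points (adjusted p = 0.0039, n = 12 libraries by exact sign-flip tests). With TTMV and TIGT added to the members and YDGS and YRYD to the tyrosine frame, the J3 difference was -11.3 points (adjusted p = 0.0020) and the J4 difference -3.02 points (adjusted p = 0.297, exact sign-flip tests). With TTMV and YDGS alone added they were -12.1 (adjusted p = 0.000977) and -2.22 points (adjusted p = 0.428), and with TIGT and YRYD alone 8.35 (adjusted p = 0.154) and -17.4 points (adjusted p = 0.0039, exact). These motif sets were chosen after seeing the data. The commonest bases under TIGT (11 of 49 distinct CDR3s) lay in the hydrophobic frame in 14 in-frame sequences and in the tyrosine frame in 0. For those bases YRYD is therefore no tyrosine-frame partner. With the motifs of the rule, J use of members did not differ between control SMO and LFPRLR SMO libraries beyond their spread for any of the 4 segments (adjusted p from 0.929 to 1, exact Mann-Whitney tests). The interval of the J4 shift ran from -22.2 to 11.1 points. With all 4 motifs added, J2 was higher under LFPRLR SMO by 7.88 points (exact Mann-Whitney p = 0.0152, adjusted p = 0.0606). With TTMV and YDGS alone it was higher by 8.31 points (exact Mann-Whitney p = 0.0411, adjusted p = 0.124). TIGT and YRYD alone gave 1.51 points, and none of these passed after adjustment.

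**Figure D5:**
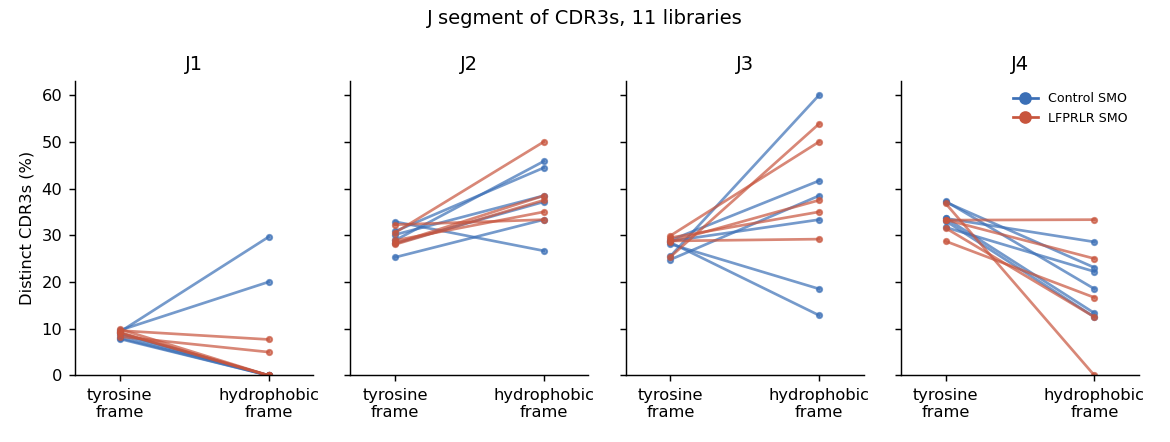
Each line joins a library's percent of tyrosine-frame CDR3s and of hydrophobic-frame CDR3s that used J1, J2, J3 or J4, for 11 libraries (LFPRLR SMO replicate 6, with 1 member, is not drawn). J2 rises in all but control SMO replicate 7, J4 is lower in all but LFPRLR SMO replicate 8, and J1 is high in control SMO replicates 3 and 8.

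Outside the motif, the arginine content of members was below that of tyrosine-frame CDR3s in most libraries, and the difference did not pass the threshold. Arginine made up 4.84% to 14.3% of the other residues of members and 10.5% to 11.4% of those of tyrosine-frame CDR3s. It was lower in 9 of 12 libraries, with a mean difference of -2.16 ± 2.71 points (SD, exact sign-flip p = 0.0229, adjusted p = 0.115 over 5 comparisons). It passed without LFPRLR SMO replicate 6 (-2.62 points, adjusted p = 0.0293), and without TTVV and YGSS (-3.05 points, adjusted p = 0.0098, both exact). With TTMV and YDGS added it was 0.0645 points (exact, adjusted p = 0.990). Over distinct CDR3s, 131 of 208 members began with Ala-Arg (63.0%), against 72.3% of tyrosine-frame CDR3s. Tyrosine, a residue common in antibody loops, made up 13.6% to 24.2% of the members' residues outside the motif and 20.03% to 22.1% in the tyrosine frame.

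Most members were read once. Of 208, 119 had 1 read over all libraries and 26 had 10 or more. Per library 20% to 100% of members were read once, against 47.1% to 94.4% of tyrosine-frame CDR3s, a mean difference of -4.87 ± 14.1 points (SD, n = 12, exact p = 0.254, adjusted p = 0.423). Mean reads per CDR3 did not differ beyond the spread either (-0.05 ± 1.36 on the log2 scale, adjusted p = 0.911, exact). Members took 0.0287% to 0.162% of CDR3 reads under control SMO and 0.0132% to 0.965% under LFPRLR SMO, with medians of 0.0653% and 0.0685% (exact Mann-Whitney p = 0.937, adjusted p = 0.937, n = 6 and 6).

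A single CDR3 carried most member reads of LFPRLR SMO replicate 8. ARSSITTVVDY, with J2, had 1365 of the 1488 member reads there, or 0.885% of all CDR3 reads, and ranked 6 by reads in that library. Its motif bases were held by 3 of 64 distinct TTVV CDR3s, against 52 with the commonest bases. Whether ARSSITTVVDY has the same origin as the TTVV CDR3s of control SMO replicates 3 and 8 was not tested. ARSSITTVVDY was the only member to reach 0.5% of a library's CDR3 reads, and without it members took 0.0805% of reads in LFPRLR SMO replicate 8. It was also read 2 times in control SMO replicate 5, 3 times in control SMO replicate 8 and 1 time in LFPRLR SMO replicate 6, where it was the only member. Its reads made up 55.1% of the 2488 member reads of the study.

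The next members by reads were far smaller. TIVTPDY, a loop of 7 residues that opens with the motif, had 112 reads in control SMO replicate 9 and 15 in control SMO replicate 4:
TIVTPDY: ACAATAGTAACTcctgactac
The capitals mark the motif codons, which begin right after the Cys codon. These are not the commonest bases under TIVT and were held by 3 distinct CDR3s. The CDR3 TISMMVTTWFAY, whose motif lies further in, opens with the same Thr and Ile codons. Whether the first bases of TIVTPDY come from the D or the V segment was not tested. TISMMVTTWFAY had 65 and 4 reads in the same libraries, ATTIVTTMDY 41 in control SMO replicate 8, 22 in control SMO replicate 4 and 1 in each of control SMO replicate 9 and LFPRLR SMO replicate 3. Under LFPRLR SMO, ARGGSTMVTKEFAY had 73 reads in replicate 7, 2 in replicate 5 and 1 in replicate 8, besides 2 in control SMO replicate 9. The third by reads there was a TMVT loop of 15 residues with 74 reads in LFPRLR SMO replicate 8. The motif stood at the first residue in 12 of the 208 members.

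Few members were found in more than 1 library. Of the 208 members 31 were found in more than 1 library (14.9%, against 16.8% of tyrosine-frame CDR3s), 20 of them in exactly 2, 7 in 3 and 4 in 4. Of the 20, 11 lay in a pair of libraries that shared many of their most-read CDR3s. Both groups held 7 members (3.37%), control SMO alone 140 (67.3%) and LFPRLR SMO alone 61 (29.3%). Of tyrosine-frame CDR3s 6.57% were found in both groups, 55.9% under control SMO alone and 37.5% under LFPRLR SMO alone, and of all distinct CDR3s 7.24%, 54.2% and 38.5%. Control SMO libraries also held more distinct CDR3s in sum (167701 against 119138), and nothing is read from the split of the members. Within libraries the percent of members also found elsewhere differed from that of tyrosine-frame CDR3s by -2.59 ± 12.5 points (SD, n = 12, exact p = 0.492, adjusted p = 0.615). ATMITTAY, found in LFPRLR SMO replicates 4, 5 and 7 with 5, 14 and 2 reads, and TMMVTTF, found in control SMO replicates 4, 7 and 9 with 2, 10 and 3 reads, were the members of at most 14 residues found in most libraries for TMIT and MMVT.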

How the data were processed

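Per the labels and the methods, splenic B-cell RNA was amplified with J558 VH and Cμ primers, libraries were made by adapter ligation and sequenced on a MiSeq instrument. The authors deposited, for each library, counts of reads for every unique nucleotide sequence and for every unique translation, with no normalization. CDR3 features in the study were analysed with IMGT HighV-QUEST, which was not used here; a genome build and the tool that merged reads and made these lists are not given in the sources used here. PCR and read errors add unique sequences, so distinct CDR3s are not cells, and no molecular identifiers were used.

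Translations without a stop were kept. The CDR3 lay between the Cys of [YF][YF]C ending at residues 16 to 30 and the Trp of the last WG[QAT]GT. J1 was called from WG[AT]GT, J2 from WGQGTT, J3 from WGQGTL and J4 from WGQGTS. Each distinct CDR3 was counted once per library, and its J was the one with most reads. A CDR3 with both kinds of motif (1) was left out of the ratio only. Groups came from the treatment label and replicate numbers from the titles.

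Groups were compared with exact two-sided Mann-Whitney U tests over 6 and 6 libraries (smallest p 0.0022), and frames within libraries with exact sign-flip tests. Benjamini-Hochberg adjustment covered 4 group comparisons, 4 J segments, 5 within-library comparisons or all stretches of 4 residues; calls used 0.05. Frames of D bases were compared in libraries with at least 10 out-of-frame sequences in the hydrophobic or tyrosine frame. The scripts were tested on simulated data. Named CDR3s were all motifs, the most shared CDR3s of at most 14 residues per motif, and those with most reads (0.5% of a library, or 3 per group). Members and lists were chosen with earlier results of these data known. Alternatives counted translations, required 2 reads, limited length to 25 residues, weighted by reads, averaged the 3 pairs, left out each library, or used the library sets or replicate numbers. Replicate numbers were not taken as pairs, since over 1241 stretches the deviations of libraries with the same number correlated at -0.75 (3), 0.58 (4), 0.41 (5), -0.36 (7) and 0.41 (8). Python 3.11.15 with NumPy 2.4.6 and SciPy 1.17.1 was used.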

Additional observations from a re-analysis of the deposited data

Results flagged for a closer look

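Of 24 groups of 5 or 6 libraries tested for a library far from the others, 6 held one. Chance alone flags about 1 in 20 groups if they are independent and their values normally distributed. These groups are related measures of the same 12 libraries and some rest on few members, so no excess is read from the count. Control SMO replicate 8 stood above the other control SMO libraries in the share of hydrophobic-frame CDR3s (0.218%) and in their number per 100 tyrosine-frame CDR3s (1.98). LFPRLR SMO replicate 6, with 1 member among 458 distinct CDR3s, stood above its group in that share (0.218%) and in J2 use (100%). LFPRLR SMO replicate 8 stood above its group in the read share of members (0.965%), of which ARSSITTVVDY carried 0.885% of CDR3 reads. Control SMO replicate 3 stood below the other control SMO libraries in the log2 ratio of hydrophobic to tyrosine frame, in-frame minus out-of-frame (-9.35).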

How the results depend on the processing

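No comparison of control SMO with LFPRLR SMO passed its adjusted threshold under any alternative run. Counting only CDR3s with at least 2 reads gave the lowest unadjusted p of the share (difference -0.0530 points, exact p = 0.0411, adjusted p = 0.165). The in-frame against out-of-frame difference stayed negative and past the threshold in all 22 alternatives, and 0 stretches of 4 residues were called in any of 4, where 9 to 1202 stretches at the smallest possible p were needed for a call, so that this count says nothing of stability. With the replicate number as a replicate block over 5 pairs, the LFPRLR SMO minus control SMO difference was -0.0453 points for the share and -0.383 per 100 for the ratio (both exact sign-flip p = 0.0625, the smallest 5 pairs allow, adjusted p = 0.125), 0.170 points for the read share and -0.279 residues for length; no call changed. Deviations of the 5 pairs correlated at 0.727 for the share, 0.648 for the ratio, 0.648 for the read share and 0.258 for length, and the share was lower under LFPRLR SMO in 5 of 5 numbers, but the correlations over all stretches were below 0 for replicates 3 and 7, so the numbers were not taken as pairs. Group differences that changed sign, none past the threshold, were as follows. With each CDR3 weighted by its reads the share differed by 0.00322 points and the ratio by 0.277. With at least 2 reads J2 differed by -5.49 points and the read share by -0.0300. Without CDR3s with a larger read share in another library J4 differed by 1.29 points, length by 0.397 residues and the read share by -0.0621 points. Among the 6 libraries with the second Cμ form J2 differed by -9.44, J3 by -4.17, J4 by 3.33, length by 0.0833 and the read share by -0.0692, among the other 6 the ratio differed by 0.0300, and with labels permuted within the sets J2 differed by -4.06. With TTMV, TIGT, YDGS and YRYD added J3 was at -7.21 and the read share at -0.181, with TTMV and YDGS alone J3 at -6.05, the read share at -0.177 and the ratio at 0.0466, and without TTVV and YGSS the read share was at -0.0205. Leaving out 1 library at a time gave -0.0218 to -9.04e-05 for the share, -0.684 to -0.101 for length, -0.175 to 0.00322 for the ratio, -0.0223 to 0.0288 for the read share, -0.481 to 0.838 for J2 and -2.21 to 2.92 for J3.

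Within libraries, the J2 difference no longer passed with at least 2 reads (7.87 points), with unique translations (11.3), in LFPRLR SMO (18.5) or control SMO (8.27) libraries alone, or without TTVV and YGSS (5.84). J4 no longer passed in LFPRLR SMO (-17.3) or control SMO (-14.7) libraries alone, with all 4 motifs added (-3.02) or with TTMV and YDGS (-2.22). In 6 libraries no exact p falls below 0.03125 (0.125 after adjustment where 1 of 4 J segments reaches it). J2 in LFPRLR SMO and J4 in control SMO libraries alone stood at that p, so these calls were limited by the number of libraries. J2 in control SMO and J4 in LFPRLR SMO libraries alone stood above it (exact sign-flip p = 0.0625 for each). J3 passed without TTVV and YGSS (12.6) and turned to -11.3 with all 4 motifs and -12.1 with TTMV and YDGS added. J1 passed without TTVV and YGSS (-5.38) and without control SMO replicate 3 (-6.66, exact sign-flip test, adjusted p = 0.0182), within a range of -6.66 to -3.30 on leaving out 1 library. Arginine passed with at least 2 reads (-3.24) and without TTVV and YGSS (-3.05), ranged from -2.62 to -1.79 and changed sign with all 4 motifs (0.00906) or TTMV and YDGS (0.0645) added, as length did with the latter (0.00466). Reads per CDR3 changed sign with the pairs averaged (0.146), in LFPRLR SMO libraries alone (0.332) and without CDR3s with a larger read share elsewhere (0.109), and ranged from -0.338 to 0.0933. The alternatives that changed motifs were chosen after seeing the data, and the cause of these changes was not tested. CDR3s read once gave no value with at least 2 reads required. With 1 to 70 members a library, counting error limits each share.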
